A study of Homo sapiens with 8 samples.

Results

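The genes examined were the 31 genes that encode the constitutive subunits of the 26S proteasome, out of 25702 genes counted in each library. They were listed by symbol as the constitutive subunits, and the symbols were matched to the NCBI gene numbers of the count tables. All 31 were found: 7 of the 20S alpha ring, 7 of the 20S beta ring, 6 ATPases and 3 further subunits of the 19S base, and 8 subunits of the 19S lid. RNA-seq was made from SUIT2, an established human pancreatic ductal adenocarcinoma (PDA) cell line, grown as epithelial cells without any stated genetic alteration. All cells carried a lentiviral pLKO.1 shRNA vector, in 4 libraries with a scramble shRNA (shScr), 2 with the EN1 shRNA construct #1 (shEN1 #1) and 2 with the EN1 shRNA construct #2 (shEN1 #2). The question put to them was which genes change when EN1, a homeodomain transcription factor, is depleted. The labels give no dose, time or age, and do not say whether libraries of a group came from separate cultures, so the p-values below measure the spread between these libraries, which may be technical.

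The proteasome degrades proteins that carry ubiquitin chains. Its 20S core is a barrel in which rings of alpha subunits form a gated entry and rings of beta subunits hold the proteolytic sites facing the inner chamber, and its 19S cap recognises the ubiquitin chain, removes it, unfolds the substrate with a ring of ATPases and threads it into the core. The subunits assemble in fixed stoichiometry, and in mammalian cells NFE2L1, a transcription factor that is itself degraded when proteasomes are abundant, raises their genes together through antioxidant response elements when proteolysis falls short.

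Reference promoter sequence was examined for the letters of that element, since it is the known common input to these genes. RefSeq promoter windows on GRCh38.p14, which run from 250 bases before to 50 bases after each start site, were matched for 26 of the 31 genes, all but PSMA7, PSMB1, PSMB6, PSMB7 and PSMD4. The letters TGACNNNGC on either strand occurred in 7 of the 26 (26.9%) and in 16.1% of 27303 genes of the table. The sequences upstream of the start follow in the direction of the gene, with the matching letters in capitals, because they are where the letters read by this known regulator occur.
PSMA4, chr15:78540650-78540678, plus strand, match 126 bases before the start: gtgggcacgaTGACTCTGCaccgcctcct
PSMB3, chr17:38752627-38752655, plus strand, match 104 bases before the start: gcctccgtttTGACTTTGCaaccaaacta
PSMC5, chr17:63827654-63827682, plus strand, match on the opposite strand 57 bases before the start: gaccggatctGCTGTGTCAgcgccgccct
PSMD3, chr17:39980760-39980788, plus strand, match 37 bases before the start: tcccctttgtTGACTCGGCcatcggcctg
PSMD12, chr17:67366724-67366752, minus strand, match 165 bases before the start: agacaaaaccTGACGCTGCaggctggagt
The other matches lay after the start, in PSMC4 and PSMD1 and, as a further match, in PSMD3. An ETS site, CCGGAAG, was present in 10 of the 26 windows (38.5%, against 12.2% of all genes) and a CCAAT box in 15 (57.7%, against 39.7%). TAATTA, the core that many homeodomain proteins bind, was present in 1 of the 26, that of PSMA6 (3.85%, against 5.95%). None of these letter strings contains another, all were searched on both strands, and a match is a description of the letters and not a binding site.

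Library totals ranged from 33423590 to 37810604 counts, and the 31 genes took between 0.545% and 0.618% of them. Levels are given as CPM, counts per 1000000 counts of a library whose size was adjusted by TMM, a factor that balances composition between libraries and lay between 0.962 and 1.07. EN1 itself did not follow the labels. It stood at 4.10, 4.50, 4.94 and 2.51 CPM in the libraries labelled shScr, at 5.77 and 5.41 CPM in those labelled shEN1 #1 and at 1.35 and 6.70 CPM in those labelled shEN1 #2, so a direction below is one between labels. The closest libraries of all were shScr replicate 4 and shEN1 #2 replicate 1, with a root mean square difference of 0.395 in log2 CPM over 14333 genes, whereas each differed from the other 6 libraries by 0.736 to 0.841. All 5 epithelial markers were present in every library. In those same 2 libraries KRT19 was at 400 and 321 CPM (831 to 1650 CPM in the other 6), EPCAM at 234 and 241 CPM (366 to 589 CPM) and CDH1 at 124 and 103 CPM (157 to 256 CPM). KRT8, at 6490 and 6370 CPM (6090 to 9570 CPM), and KRT18, at 4250 and 4220 CPM (3590 to 5630 CPM), lay within the range of the other 6. The part of these marker differences in the results was not tested. The leukocyte marker PTPRC was at 0 throughout, and of the fibroblast markers COL1A2 was at 0 and COL1A1 at 1.02 to 3.99 CPM. In such bulk RNA, fewer cells of a type and less RNA per cell cannot be told apart.

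All 31 subunit genes were expressed in every library, with between 1891 and 27223 reads each. In the alpha ring, which gates entry to the core, PSMA1 to PSMA6 lay between 111 and 291 CPM and PSMA7 between 375 and 446 CPM. The 7 genes of the beta ring spanned 84.4 to 250 CPM and the 6 ATPases, which unfold the substrate, 79.2 to 282 CPM. In the base, PSMD1 was at 208 to 267 CPM, PSMD2, a scaffold that docks ubiquitin shuttle factors, at 624 to 763 CPM and PSMD4, a ubiquitin receptor, at 194 to 214 CPM. The lid ran from PSMD7, the partner of its deubiquitinase, at 54.3 to 69.8 CPM to PSMD11 at 207 to 250.4 CPM. The plot of levels by library shows all of these values.

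**Figure D1:**
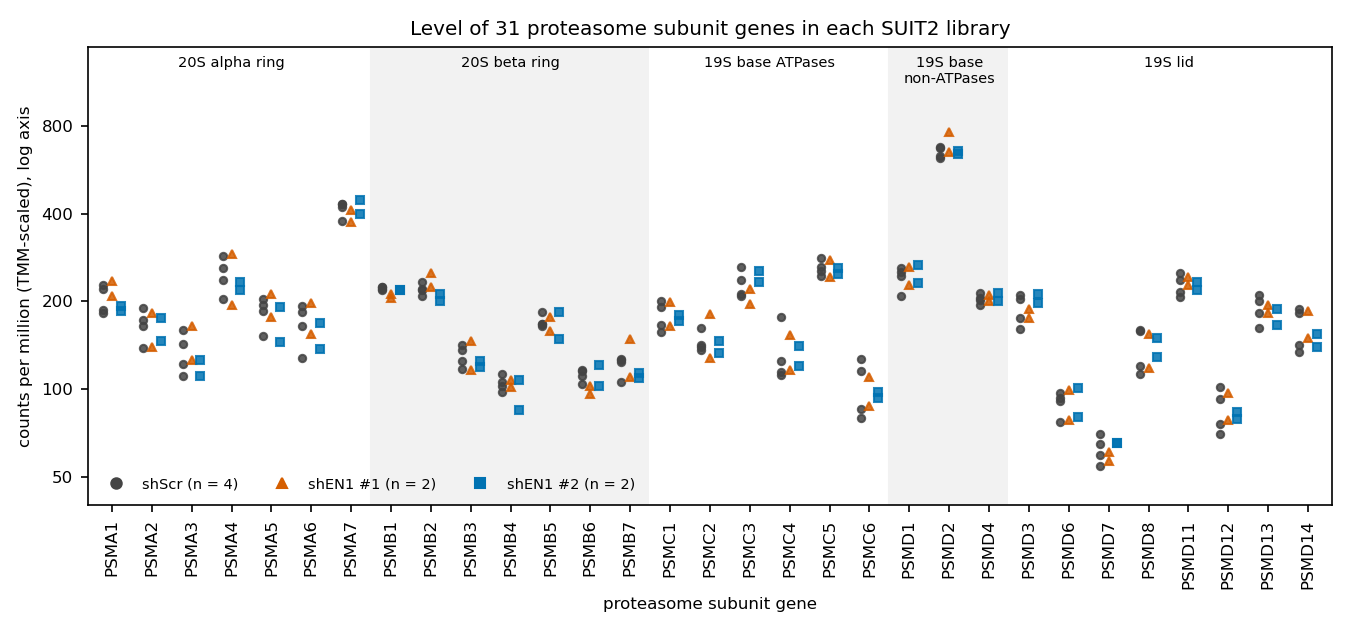
Level of each of the 31 proteasome subunit genes (horizontal axis, by subcomplex) in CPM on a log axis, with 1 point per library: shScr (grey circles, n = 4), shEN1 #1 (orange triangles, n = 2) and shEN1 #2 (blue squares, n = 2). Within each gene the points lie close together, at most 1.60 times apart, and shEN1 and shScr points overlap for 30 of the 31 genes when both constructs are pooled.

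CPM rises with transcript length, so genes were compared with each other per kilobase of the MANE Select transcript. PSMA7 then came first, at 429 ± 27.4 CPM per kilobase (SD, n = 8), followed by PSMB1 at 245 ± 7.28 and PSMD2 at 229 ± 14.9 CPM per kilobase. PSMD12 was the lowest, at 19.4 ± 2.52 CPM per kilobase, below PSMD7 at 38.0 ± 3.19. The order depended on the length used. PSMB2 and PSMA4 ranked 26 and 24 of 31 per kilobase of transcript, since their annotated transcripts have 4426 and 4378 bases, but 2 and 3 per kilobase of coding sequence, at 367 ± 25.6 and 308 ± 46.2 CPM per kilobase. PSMA7 in the first place and PSMD7 and PSMD12 in the last places kept their ranks on both lengths.

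Each subunit gene held its level closely across the 8 libraries. The SD of log2 CPM had a median of 0.144 over the 31 genes and 0.263 over all 14333 genes tested, and all 31 lay below that all-gene median, which includes genes with far fewer reads and so more counting error. PSMB1, a non-catalytic beta subunit, was the steadiest: its level was 221, 219.8, 224 and 224 CPM in the shScr libraries, 212 and 205 CPM with shEN1 #1, and 219.5 CPM in both shEN1 #2 libraries. PSMD4 came next, with an SD of 0.051 in log2 CPM against 0.044 for PSMB1. The widest ratios between the highest and the lowest library were 1.60 for PSMC6, 1.58 for PSMC4 and 1.54 for PSMA6. PSMC4 was at 176 CPM in shScr replicate 3 and at 154 CPM in shEN1 #1 replicate 1, whereas the other 6 libraries had 112 to 140.1 CPM.

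Depletion of EN1, as labelled, was then compared with shScr. None of the 31 subunit genes differed between the 4 shEN1 and the 4 shScr libraries by the edgeR quasi-likelihood test, with p-values adjusted after Benjamini and Hochberg over 14333 genes, where 0% of all genes were called. At an unadjusted p below 0.05, 0 of the 31 and 0.307% of all genes passed, and DESeq2 called 0 of the 31 and 2 of the 14333. The unadjusted all-gene share was far below 0.05, the share such a threshold passes when no gene differs. A count of 0 of the 31 therefore says little about the subunits, and the construct comparisons below share this limit. The log2 fold changes of the 31 genes ran from -0.08 to 0.06 with a median of -0.02, beside a median of -0.0028 over all genes. Of the 31, 11 (35.5%) were above 0, against 48.9% of all genes. Without shScr replicate 4 and shEN1 #2 replicate 1, the median was again -0.02 and 9 were above 0. In that fit 0 of the 31 and 1 of all 14263 genes were called. With all libraries, the standard errors of the 31 fold changes were 0.09 to 0.16 on the log2 scale. They were wider than the fold change itself for every one of the 31, as the plot of fold changes shows.

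**Figure D2:**
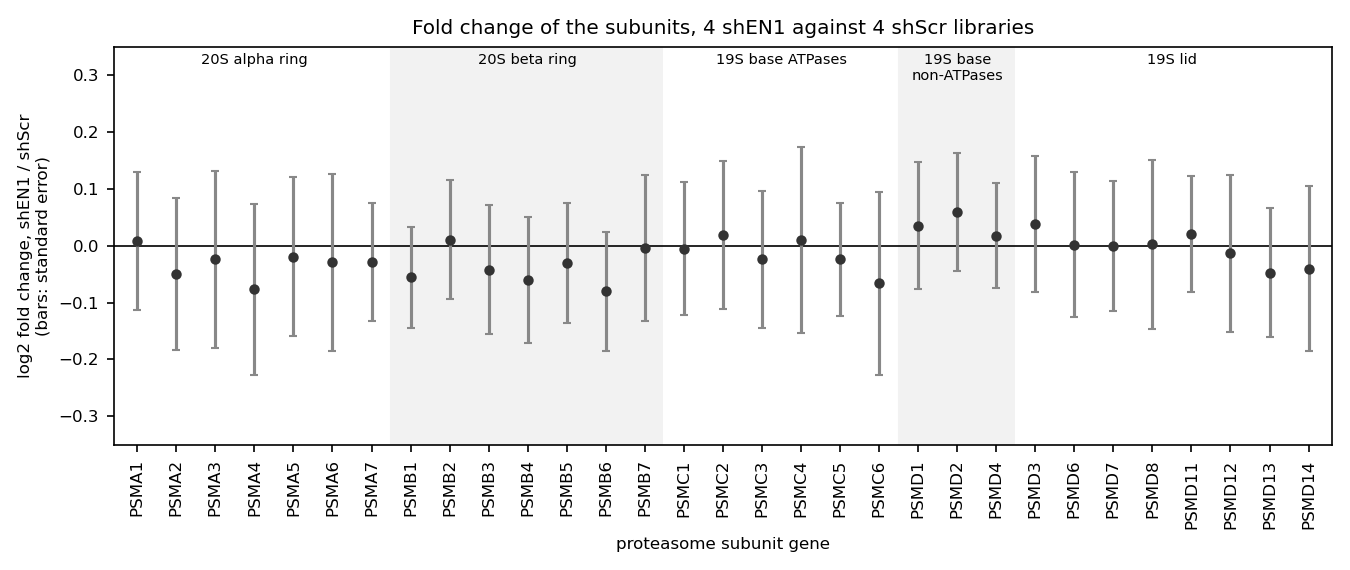
Log2 fold change of each subunit gene between 4 shEN1 and 4 shScr libraries (points) with its standard error (bars), from the edgeR fit, by subcomplex. All 31 points lie between -0.08 and 0.06, and every bar crosses 0.

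The catalytic subunits of the beta ring were measured first. PSMB5, which carries the chymotrypsin-like site that bortezomib blocks, was at 167, 164, 184 and 167 CPM in the shScr libraries, at 177 and 158 CPM with shEN1 #1 and at 149 and 185 CPM with shEN1 #2. PSMB6, which carries the caspase-like site, was at 104, 116, 115 and 111 CPM in shScr, at 102 and 96.1 CPM with shEN1 #1 and at 103 and 121 CPM with shEN1 #2. PSMB7, which carries the trypsin-like site, was at 126, 127, 124 and 106 CPM in shScr, at 148 and 110.2 CPM with shEN1 #1 and at 109 and 113 CPM with shEN1 #2. In each of these genes the groups overlapped. The library with the highest PSMB7 was shEN1 #1 replicate 1, whereas for PSMB5 and PSMB6 it was shEN1 #2 replicate 2. The log2 fold changes were -0.03 ± 0.11 (SE) for PSMB5, -0.08 ± 0.11 for PSMB6 and -0.0033 ± 0.13 for PSMB7, each with an edgeR adjusted p of 1.00. Leaving out single libraries turned the sign for PSMB5 (-0.08 to 0.02) and PSMB7 (-0.12 to 0.04), and PSMB6 went to -0.15 without shEN1 #2 replicate 2 and to -0.04 without shEN1 #1 replicate 2.

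Among the structural beta subunits, PSMB2, PSMB3 and PSMB4 overlapped between the groups, with log2 fold changes of 0.01, -0.04 and -0.06. PSMB1 was the only one of the 31 genes in which they did not: its lowest shScr library had 219.8 CPM and its highest shEN1 library 219.5 CPM. Of all 14333 genes, 0.419% had groups that did not overlap, and 1 of 31 subunits did. With DESeq2 size factors, upper-quartile scaling or library size alone, the PSMB1 groups overlapped, and 0 of the 31 subunits were separate. Its log2 fold change was -0.06 ± 0.09 (SE, edgeR adjusted p of 1.00). In 6 of the 7 beta ring genes the fold change was below 0, with a median of -0.04, and the same count was found in the alpha ring, with a median of -0.03. In each ring 14.3% of the genes were above 0, against 48.9% of all genes.

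In the 19S cap, the 6 ATPases had a median log2 fold change of -0.01, with 2 above 0, from PSMC6 at -0.07 to PSMC2 at 0.02. The 8 lid subunits had a median of 0.001, with 4 above 0, from PSMD13 at -0.05 to PSMD3 at 0.04. The 3 non-ATPase subunits of the base, PSMD1, PSMD2 and PSMD4, were all above 0, with a median of 0.04. PSMD2 was at 672, 624, 681 and 631 CPM in shScr, at 763 and 655 CPM with shEN1 #1 and at 644 and 657 CPM with shEN1 #2. Its log2 fold change of 0.06 ± 0.10 (SE, edgeR adjusted p of 1.00) rested on shEN1 #1 replicate 1 and was -0.00054 without it. PSMD3, a scaffold of the lid, was at 175, 161, 204 and 211 CPM in shScr, at 175 and 188 CPM with shEN1 #1 and at 197 and 212 CPM with shEN1 #2, a log2 fold change of 0.04 ± 0.12 (edgeR adjusted p of 1.00) that ran from -0.03 to 0.10 when single libraries were left out. PSMD14, the lid enzyme that cuts the ubiquitin chain from the substrate, was at 189, 182, 142 and 134 CPM in shScr, at 185 and 149 CPM with shEN1 #1 and at 140 and 155 CPM with shEN1 #2. Its shScr libraries spanned a wider range than its shEN1 libraries, and the log2 fold change was -0.04 ± 0.15 (edgeR adjusted p of 1.00), or -0.13 to 0.04 without single libraries. With the replicate number as a block, which could use 6 libraries only, PSMD14 was at -0.24 and PSMD3 at 0.20, and neither was called. That fit left out shScr replicates 3 and 4, the shScr libraries with the least PSMD14 and the most PSMD3.

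The constructs were also taken one at a time, in a fit with 3 groups. With shEN1 #1, 0 of the 31 genes were called after adjustment (0% of all genes) and 0 at an unadjusted p below 0.05 (0.656% of all genes). Their median log2 fold change against shScr was 0.01, with 17 (54.8%) above 0, beside a median of -0.007 and 48.3% over all genes. The extremes were PSMB6 at -0.17 ± 0.13 and PSMD2 at 0.12 ± 0.14. With shEN1 #2, 0 of the 31 were called after adjustment (0% of all genes) and 0 at an unadjusted p below 0.05 (0.3% of all genes). The median was then -0.04, with 9 (29%) above 0, beside a median of -0.009 and 48.1% over all genes. The extremes were PSMA3 at -0.18 ± 0.19 and PSMD3 at 0.12 ± 0.15. Both comparisons use the same shScr libraries, and DESeq2 called 0 of the 31 in either, with 3 of all genes called for shEN1 #1 and 0 for shEN1 #2. Tested against each other, shEN1 #2 and shEN1 #1 differed in 0 of the 31 genes after adjustment (0% of all genes) and in 0 at an unadjusted p below 0.05 (1.07% of all genes). The median difference was -0.05 and 10 genes (32.3%) were above 0, beside a median of 0.002 and 50.3% over all genes. The alpha ring had the lowest median of the subcomplexes, -0.20, with PSMA3 at -0.29 ± 0.21 (SE, edgeR adjusted p of 1.00). The libraries of 1 construct differed among themselves in the same genes: PSMA3 was at 165 and 126 CPM with shEN1 #1 and at 111 and 126 CPM with shEN1 #2.

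How closely the subunits vary together was described by the deviation of each gene's log2 CPM from its own mean over the 8 libraries. In shEN1 #1 replicate 1, 24 of the 31 genes lay above their own mean, with a median deviation of 0.17, beside 0.009 over all genes. In shEN1 #1 replicate 2, the other library of that construct, 4 of 31 did, with a median deviation of -0.09. The libraries with the most and the fewest subunits above their mean thus carried the same label. In shScr replicates 1 to 4, 23, 21, 14 and 12 of the 31 genes lay above their mean, with medians of 0.06, 0.10, -0.02 and -0.08. In shEN1 #2, the 2 libraries had 12 and 13 above their mean, with medians of -0.08 and -0.02. With library size alone in place of TMM, the medians for shScr replicate 4 and shEN1 #2 replicate 1 became 0.006 and 0.02, beside 0.09 and 0.10 over all genes.

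**Figure D3:**
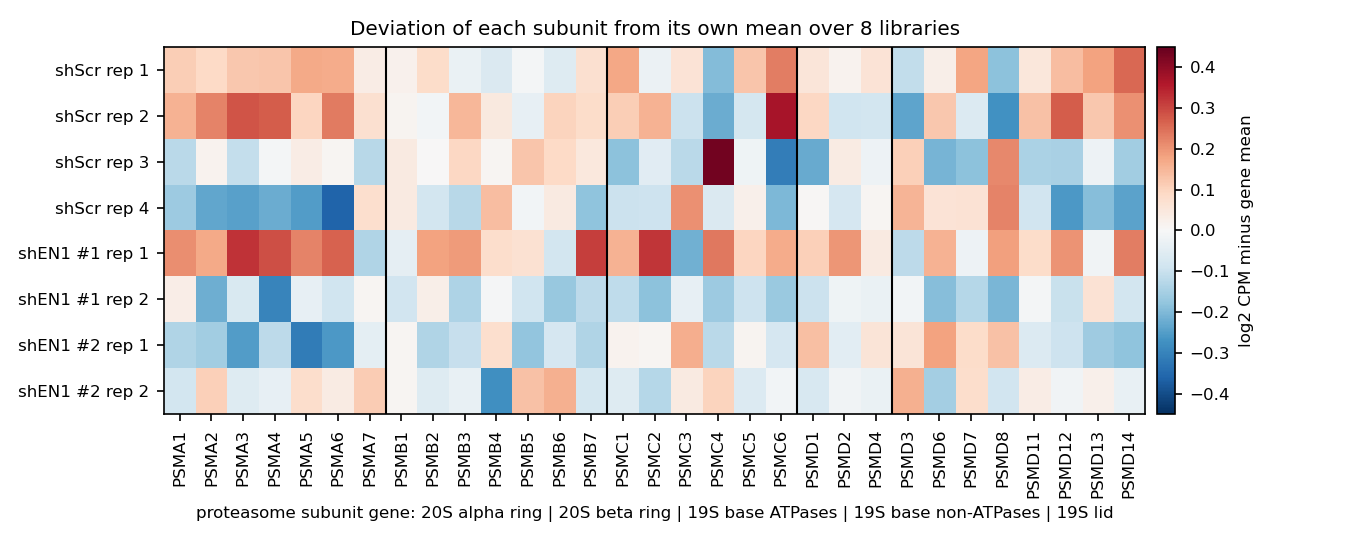
Deviation of each subunit gene (columns, by subcomplex, divided by black lines) from its own mean log2 CPM over 8 libraries (rows), red above and blue below the mean. PSMA1 to PSMA6 are red in shScr replicates 1 and 2 and shEN1 #1 replicate 1 and blue in shScr replicate 4 and shEN1 #2 replicate 1, whereas PSMC3, PSMD3 and PSMD8 are blue in shScr replicate 2 and red in shScr replicate 4.

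The library means carried 23.9% of the variation of the 31 genes about their own means, a share that would be 3.23% for 31 genes of equal spread that vary independently. The mean Pearson correlation over the 465 pairs of subunits was 0.19 across the 8 libraries, beside 0.00011 over all pairs of tested genes, and 299 pairs were above 0. The scaling keeps the all-gene mean small by design, so it is not a baseline for how closely a gene set varies together. Without shScr replicate 4 and shEN1 #2 replicate 1, the share was 27.3% and the mean correlation 0.25. These correlations rest on few libraries that share their depth adjustment and the trend with base composition described below, so they are given as a description.

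As measured, the alpha ring had the highest mean correlation of the subcomplexes, though not after the correction for GC content described below (0.46, against 0.50 among the 3 other base subunits). Its 21 pairs had a mean correlation of 0.56, against 0.18 in the beta ring, 0.098 among the ATPases, 0.29 among the 3 other base subunits and 0.045 in the lid; the differences between these means were not tested. PSMA1, PSMA2, PSMA3, PSMA4, PSMA5 and PSMA6, which form the ring with PSMA7, all lay above their mean in shScr replicates 1 and 2 and in shEN1 #1 replicate 1, and all below it in shScr replicate 4 and shEN1 #2 replicate 1. PSMA6 shows the size of this movement, with 184, 193, 165 and 128 CPM in the shScr libraries, 197 and 154 CPM with shEN1 #1 and 137 and 168 CPM with shEN1 #2. PSMA1 and PSMA3 had the highest correlation of any pair, 0.96. PSMA7 moved with the other alpha subunits only in part: its level was 421, 432, 378 and 434 CPM in shScr, 375 and 414 CPM with shEN1 #1 and 399 and 446 CPM with shEN1 #2. It lay opposite to them in shScr replicate 4 and shEN1 #1 replicate 1, but on their side in shScr replicates 1 and 2 and shEN1 #2 replicate 1. Its mean correlation with the other 30 subunits was -0.12, or 0.06 after the GC correction.

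High correlations also joined subunits of the cap, within and between its parts. PSMD14 and PSMD12, 2 lid subunits, correlated at 0.95, and PSMD12 and the ATPase PSMC6 at 0.94. PSMD3, which is in the same lid, correlated at -0.88 with PSMD12 and at -0.91 with PSMA1. Its mean correlation with the other subunits, -0.35, was the lowest of the 31, followed by -0.28 for the ATPase PSMC3. The 5 genes with a mean correlation below 0 had transcripts of high GC content: 58.5% in PSMD3, 57.4% in PSMD8, 56.0% in PSMC3, 52.0% in PSMB4 and 51.9% in PSMA7, against 37.9% to 43.8% in PSMA1 to PSMA6, 37.5% in PSMD12, 36.4% in PSMC6 and 42.2% in PSMD14. Other subunits with more GC than PSMB4 and PSMA7 had mean correlations above 0, from 0.01 in PSMC4 to 0.34 in PSMB3. They were PSMB6 (55.2%), PSMB3 (53.4%), PSMB5 and PSMD4 (53.0% each), PSMD2 and PSMC4 (52.9% each) and PSMC5 (52.2%). After the GC correction described below, the mean correlation stayed below 0 in PSMD3 (-0.13) and PSMC3 (-0.11). It was then above 0 in PSMD8 (0.09), PSMA7 (0.06) and PSMB4 (0.04), whereas that of PSMD7 went from 0.1 to -0.03.

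The deviations of the subunits were then set against the GC content of their transcripts in each library. Across the 31 genes, Spearman's rho between them was -0.62 and -0.78 in shScr replicates 1 and 2, 0.54 and 0.72 in shScr replicates 3 and 4, -0.55 and 0.14 in the shEN1 #1 libraries, and 0.42 and 0.20 in the shEN1 #2 libraries. In shScr replicate 4 the 15 subunits with a GC content below 47.9% had a median deviation of -0.20 and the other 16 a median of 0.02, whereas in shScr replicate 2 these medians were 0.16 and -0.01. In each of the 8 libraries, rho over all tested genes had the same sign as rho over the subunits. The all-gene values ran from -0.42 in shScr replicate 2 to 0.38 in shScr replicate 3. In shEN1 #2 replicate 1 the all-gene value was only 0.017, against 0.42 over the subunits. The trend ran in opposite directions among libraries that carry the same shScr label.

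**Figure D4:**
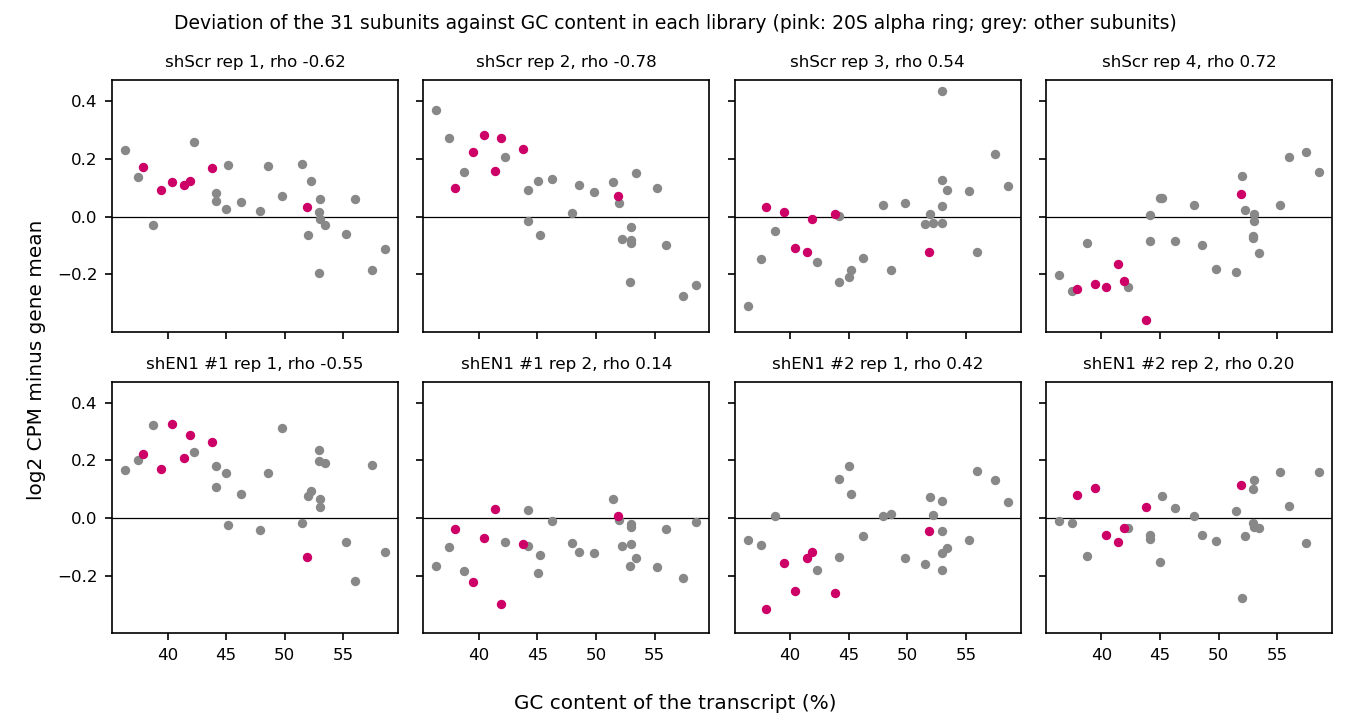
Deviation of the 31 subunit genes from their own mean log2 CPM (vertical axis) against the GC content of the transcript in percent (horizontal axis), 1 panel per library, with alpha ring genes in pink and other subunits in grey. The points fall from left to right in shScr replicates 1 and 2 and shEN1 #1 replicate 1 (rho -0.62, -0.78 and -0.55) and rise in shScr replicates 3 and 4 (0.54 and 0.72).

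After a curve fitted through all tested genes against GC content was taken out of each library, the median deviation of the alpha ring moved from 0.22 to 0.13 in shScr replicate 2, from -0.23 to -0.14 in shScr replicate 4 and from 0.22 to 0.10 in shEN1 #1 replicate 1. It also came closer to 0 in shScr replicate 1 (0.12 to 0.06) and shEN1 #1 replicate 2 (-0.07 to -0.02), changed little in shEN1 #2 replicate 1 (-0.16 to -0.14), and moved away from 0 in shEN1 #2 replicate 2 (0.04 to 0.08) and shScr replicate 3 (-0.0078 to 0.05). Its mean correlation went from 0.56 to 0.46 over the 8 libraries, and to 0.14 when shScr replicate 4 and shEN1 #2 replicate 1 were left out too, where it had been 0.54 before the curve was removed. Over all 31 subunits the mean correlation was 0.23 after this step, against 0.19 before it, and in shEN1 #1 replicate 1 27 of the 31 genes then lay above their own mean, with a median deviation of 0.11. What part GC content had in the movement of the subunits was not tested beyond these values.

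**Figure D5:**
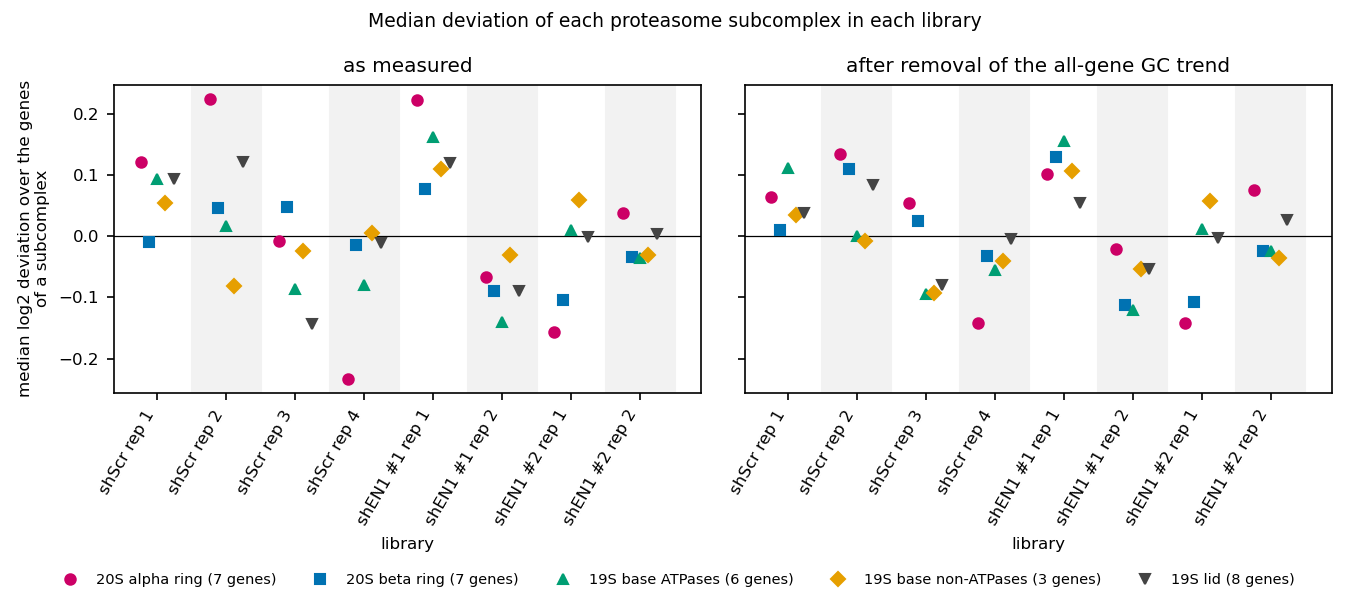
Median log2 deviation over the genes of each proteasome subcomplex in each library, as measured (left) and after the trend of all genes with GC content was removed (right). The alpha ring (pink circles) spans -0.23 to 0.22 on the left and -0.14 to 0.13 on the right, while all 5 subcomplexes are above 0 in shEN1 #1 replicate 1 on both sides.

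The genes around the proteasome were followed as listed groups. Of the immunoproteasome subunits, which replace the catalytic beta subunits under interferon, PSMB8 and PSMB9 had at most 6 and 5 reads in any library, at most 0.172 and 0.147 CPM, while PSMB10 was at 37.6 to 63.0 CPM with a log2 fold change of -0.16 ± 0.17. The testis subunit PSMA8 and the thymus subunit PSMB11 were at 0 counts in all 8 libraries. None of the other listed genes was called after adjustment or at an unadjusted p below 0.05 between shEN1 and shScr. Of 5 activator and inhibitor genes, 3 were above 0, from PSME2, a subunit of the 11S activator, at -0.15 ± 0.22 to PSMF1, an inhibitor of the core, at 0.04 ± 0.10. Of 5 further 19S components, 4 were above 0, from SEM1 at -0.11 ± 0.15 to the deubiquitinase UCHL5 at 0.09 ± 0.19.

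Of 9 assembly chaperones, 5 had a log2 fold change above 0 (median 0.0015), from PAAF1 at -0.15 ± 0.20 to PSMG4 at 0.05 ± 0.18. PSMD10, which guides assembly of the ATPase ring and is also known as gankyrin, is named here because its values were seen: it was at 46.0, 54.4, 10.8 and 58.3 CPM in the shScr libraries, at 15.3 and 42.0 CPM with shEN1 #1 and at 58.0 and 45.3 CPM with shEN1 #2. The low libraries were shScr replicate 3 and shEN1 #1 replicate 1, which carry different labels, and the ratio between its highest and lowest library was 5.41, beyond that of any of the 31 subunits. Among the genes that control NFE2L1 or share its sites, 7 of 9 were above 0 (median 0.02), from the ubiquitin ligase SYVN1 at -0.03 ± 0.13 to the glycanase NGLY1 at 0.11 ± 0.14. NFE2L1 itself was at 211 to 250 CPM in all libraries.

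Reads of some subunits could be shared with other annotated genes, since neither the strand setting nor the annotation of the counting is given in the sources used here. On GRCh37, PSMC1 (chr14:90722871-90741773, plus strand, 11 exons) overlaps NRDE2 on the opposite strand over 3654 of the 4390 exonic bases of its transcript and has 13 named pseudogenes, and PSMA6 (chr14:35747839-35786699) has 4 named pseudogenes and shares 833 of its 1023 exonic bases with an overlapping gene on the same strand. Such a gene also covers 801 of the 1195 exonic bases of PSMA1 (chr11:14526420-14665181) and all 1434 of PSMA2 (chr7:42956427-42971784), and an antisense gene covers 842 of the 1631 of PSMD7 (chr16:74330712-74340186). Whether the overlapping genes were part of the annotation used for counting was not checked. How far the levels of these 5 genes are affected is therefore not known. Smaller overlaps lay in PSMB5 (109 bases, same strand), PSMC5 (182 bases, opposite strand) and PSMD11 (105 bases, opposite strand). The immunoproteasome gene PSMB10 shares 548 of its 977 exonic bases with a gene on the same strand, so its level has the same limit. PSMB1 (chr6:170844208-170862395, 6 exons), PSMA7 (chr20:60711789-60718496, 7 exons) and PSMD2 (chr3:184016986-184026838, 21 exons) have no such overlap and no named pseudogene.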

How the data were processed

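RNA was purified from SUIT2 cells, poly(A)-selected and sequenced as paired-end reads on 8 libraries. Per the file headers, the deposited tables hold raw read counts for each NCBI gene, made by the authors with HISAT2 and featureCounts, whose versions are not given in the sources used here. The study's methods name hg19 for human reads, whereas the submitters' processing notes name mm9, a mouse build. The gene numbers in the tables are human, and all 31 subunits were matched by them, so reads were counted on human genes. The deposited counts were not normalized. Of 25702 genes, 23696 were matched to symbols through a RefSeq table, and the other 2006 held 0.214% to 0.257% of a library's counts. Genes with low counts were removed by filterByExpr (minimum count 10), which kept 14333 genes and all 31 subunits. TMM scaling and the quasi-likelihood test (robust glmQLFit, then glmQLFTest) came from edgeR 4.0.16 under R 4.3.3, with both constructs pooled against shScr or in 3 groups, and p-values were adjusted by Benjamini-Hochberg over all genes tested, at a threshold of 0.05. DESeq2 1.42.0 and limma 3.58.1 (voom) served as alternatives. Deviations used log2 CPM with a prior count of 2. GC content was that of the GENCODE canonical transcript of each symbol on GRCh37, had for 93.4% of tested genes and all 31 subunits, and its trend was removed with a lowess curve (fraction 0.3, statsmodels 0.14.6).

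Fold changes with errors are given for PSMB5, PSMB6, PSMB7, PSMD14 and the 2 subunits with the smallest unadjusted p in each direction, for the extremes of each construct comparison, and for the extremes of each related list. The genes of 1 related list are not reported here. The members, lists and rules were chosen with earlier results of these data known, and the GC correction and the joint omission of shScr replicate 4 and shEN1 #2 replicate 1 were chosen after the values were seen. No 2 libraries agreed within sampling noise (chi-square of at least 10.7 per gene). The deviations of same-numbered libraries from their group means correlated at -0.33 to 0.44. The highest value was between shScr replicate 2 and shEN1 #2 replicate 2. In a group of 2 libraries the deviations mirror each other, so these values cannot show whether libraries were paired. The replicate number was used as a block only as an alternative. The fits were also run on simulated counts whose spread was set well below that of these libraries. That run does not show how many changes they would find here. With 33423590 to 37810604 counts per library, subunits had at least 1891 reads, so counting error was small beside the spread between libraries.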

Additional observations from a re-analysis of the deposited data

Results flagged for a closer look

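Of 62 groups of 4 libraries examined for the 31 subunits, 4 held a library set far from the other 3, where chance sets about 1 in 20 apart. PSMB5 was at 184 CPM in shScr replicate 3 and at 164 to 167 CPM in the other shScr libraries. PSMB7 was at 106 CPM in shScr replicate 4, below 124 to 127 CPM in the others, and at 148 CPM in shEN1 #1 replicate 1, above 109 to 113 CPM in the other shEN1 libraries. PSMD2 was at 763 CPM in shEN1 #1 replicate 1, above 644 to 657 CPM. Of the 72 remaining groups, which hold related genes, EN1 and the library medians, 2 were set apart in the same way: PSME3, an activator of nuclear proteasomes, at 289 CPM in shScr replicate 1, and the proteasome-bound deubiquitinase USP14 at 171 CPM in shScr replicate 3, against 213 to 220 CPM.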

How the results depend on the processing

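The count of subunits called was 0 of 31 in the comparison of shEN1 with shScr under all 19 alternatives, and 0 under the 3 alternatives of each construct comparison. After adjustment, at most 2 of all genes were called between shEN1 and shScr, and at most 3 in a construct comparison. The unadjusted threshold passed 0.307% of all genes between shEN1 and shScr and 0.3% to 1.07% in the construct comparisons. A count of 0 is thus no result particular to the subunits. The median log2 fold change of -0.02 was between -0.061 and 0.0096 when single libraries were left out. With the replicate block, which uses 6 libraries because shScr replicates 3 and 4 have no partner, it was -0.067 with 7 of 31 above 0, and 0 subunits and 1 of 14747 genes were called. Fold changes near 0 turned sign. PSMB5 (-0.03) became 0.01 with the replicate block, 0.01 without shScr replicate 4 and shEN1 #2 replicate 1 together, and -0.08 to 0.02 without single libraries. PSMB7 (-0.0033) became 0.0014 with DESeq2 size factors, 0.0015 with DESeq2, 0.01 without a filter and -0.12 to 0.04 without single libraries. Without single libraries PSMD14 ran from -0.13 to 0.04, PSMD2 from -0.00054 to 0.08, PSMD3 from -0.03 to 0.10 and PSMB6 (-0.08) from -0.15 to -0.04. With the replicate block PSMD14 moved from -0.04 to -0.24 and PSMD3 from 0.04 to 0.20. The shScr libraries kept in that fit were the 2 with the most PSMD14 (189 and 182 CPM) and the least PSMD3 (175 and 161 CPM). The share of the subunits' variation carried by library means, 23.9%, was 18% with library size alone, 27.3% without shScr replicate 4 and shEN1 #2 replicate 1, and 17.7% to 27.3% without single libraries, lowest without shEN1 #1 replicate 1. It was 25.2% after the GC correction. The causes of these moves were not tested. The standard errors were 0.09 to 0.16, and differences beyond them also stayed short of the threshold at this replication: the smallest p of all 14333 genes, 0.00038, had an edgeR adjusted p of 1.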
